A study of Mus musculus with 2 samples.

Results

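Interferon-inducible GTPases were followed in single cell RNA sequencing of the mouse mammary gland, as 10 of the 32285 genes in the count tables: the guanylate-binding protein genes Gbp2, Gbp3, Gbp4, Gbp5, Gbp6 and Gbp7 and the immunity-related GTPase genes Iigp1, Irgm1, Igtp and Ifi47. They were selected on their UMI counts, as a gene family already known to differ between the libraries, so every level and ratio below is a description and carries no test. The glands came from wild-type female mice that were 9 to 10 weeks old per the labels (8 to 10 weeks per the protocol), either control mice (Ctrl) or mice given clodronate liposomes (CL), vesicles that deliver a toxic drug to the phagocytes that engulf them. Per the methods, cells negative for CD31 and TER119, which mark endothelial and red cells, and CD45+ immune cells were sorted, and each group is 1 library of 10x Genomics 3' sequencing. The study compared them to ask what loss of macrophages does to mammary cell populations. The sources used here do not tie a strain, a treatment of the controls, a number of mice or the proportion of sorted fractions to these libraries, and a fold between 2 single libraries has no replicate check. All intervals are exact 95% intervals and cover counting error only.

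These GTPases act inside the cell against pathogens that hide in vacuoles. Interferon gamma, released mainly by T and NK cells, binds a receptor on most cell types. Many promoters of genes that respond to it carry the gamma-activated site (GAS) or the interferon-stimulated response element (ISRE), which type I interferons also use. Guanylate-binding proteins coat vacuoles and microbes and help to break them, Iigp1 is an immunity-related GTPase that loads onto vacuole membranes, and Irgm1 and Igtp (also called Irgm3) are regulators that keep such GTPases off the cell's own membranes. Most are low in resting cells and are induced in cells of many lineages.

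Promoters of 7 members (8 entries, since Gbp3 has 2) were found in the RefSeq table for GRCm38.p6, which gives 250 bases before and 50 after each transcript start. Gbp4, Gbp6 and Iigp1 have no entry. Both strands were searched for TTCNNNGAA, the letters of GAS, and for GAAANNGAAA, an ISRE core. GAS letters were present in 3 of the 8 entries (Gbp5, Gbp7 and Igtp) and in 8.30% of all 32851 promoters. ISRE core letters were present in 6 of 8 (Gbp2, Gbp5, Gbp7, Irgm1, Igtp and 1 of the Gbp3 entries) and in 3.44% of all promoters. Ifi47 and the other Gbp3 entry held neither. A match only says that the letters are there. The 4 promoters below are shown because their genes stand for the patterns described further on: Gbp2 holds most of the family's UMIs in basal-like and secretory-lineage cells of CL, Gbp7 and Igtp hold both motifs, and Irgm1 has the smallest ratios in several classes. Capitals mark the matches and all 4 read 5′ to 3′ on the gene's strand: Gbp2 (chr3:142620413-142620712, plus), Gbp7 (chr3:142530086-142530385, plus), Igtp (chr11:58199306-58199605, plus) and Irgm1 (chr11:48871371-48871670, minus).
Gbp2: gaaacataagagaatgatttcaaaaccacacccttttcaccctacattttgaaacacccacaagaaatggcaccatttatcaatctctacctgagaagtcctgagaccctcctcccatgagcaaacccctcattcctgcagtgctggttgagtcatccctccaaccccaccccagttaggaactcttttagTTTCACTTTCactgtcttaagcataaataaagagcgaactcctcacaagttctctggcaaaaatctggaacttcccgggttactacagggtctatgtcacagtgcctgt
Gbp7: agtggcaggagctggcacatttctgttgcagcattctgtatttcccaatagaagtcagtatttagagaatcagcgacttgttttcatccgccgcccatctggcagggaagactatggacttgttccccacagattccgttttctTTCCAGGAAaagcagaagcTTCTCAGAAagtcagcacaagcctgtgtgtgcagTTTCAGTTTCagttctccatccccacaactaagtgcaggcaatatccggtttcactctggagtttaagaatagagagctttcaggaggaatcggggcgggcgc
Igtp: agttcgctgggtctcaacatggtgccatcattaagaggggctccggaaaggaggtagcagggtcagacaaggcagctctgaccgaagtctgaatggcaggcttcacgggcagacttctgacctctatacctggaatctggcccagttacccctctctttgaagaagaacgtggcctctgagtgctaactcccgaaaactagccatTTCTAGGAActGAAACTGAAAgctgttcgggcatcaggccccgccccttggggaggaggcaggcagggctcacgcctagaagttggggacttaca
Irgm1: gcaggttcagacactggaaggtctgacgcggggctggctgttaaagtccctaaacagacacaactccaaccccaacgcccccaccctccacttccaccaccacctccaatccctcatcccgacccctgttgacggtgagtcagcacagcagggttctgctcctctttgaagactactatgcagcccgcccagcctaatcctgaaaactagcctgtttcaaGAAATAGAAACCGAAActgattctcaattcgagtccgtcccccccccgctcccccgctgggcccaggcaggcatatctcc

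In Gbp2 the ISRE core begins at base -59 from the start site. In Gbp7 the GAS letters begin at -106 and -87 and the ISRE core at -53. In Igtp the GAS letters begin at -45 and are followed by the ISRE core at -34, with no overlap. Irgm1 holds the ISRE core at -30 and again at -24, and these matches share 4 bases.

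The members lie in a few blocks of the genome (GRCm38, GENCODE M21). Gbp5 (ENSMUSG00000105504, chr3:142493978-142522344), Gbp7 (ENSMUSG00000040253, chr3:142530342-142550149), Gbp3 (ENSMUSG00000028268, chr3:142560026-142573209) and Gbp2 (ENSMUSG00000028270, chr3:142620602-142638008) follow each other on the plus strand of chromosome 3, and Gbp4 (ENSMUSG00000079363, chr5:105115767-105139586) and Gbp6 (ENSMUSG00000104713, chr5:105270702-105293698) lie on the minus strand of chromosome 5. Irgm1 (ENSMUSG00000046879, chr11:48861968-48871683, minus strand), Ifi47 (ENSMUSG00000078920, chr11:49076587-49096974, plus strand) and Igtp (ENSMUSG00000078853, chr11:58199556-58207591, plus strand) are on chromosome 11, and Iigp1 (ENSMUSG00000054072, chr18:60376027-60392634, plus strand) is on chromosome 18. All 10 are annotated as protein coding. Of the 50-base words in the last 500 bases of transcripts, where 3' reads fall, 88.9% of those of Gbp6 also occur in Gbp10, Gbp4, Gbp9 or Gm43302 and 14.2% of those of Gbp4 in its relatives, so the values of these 2 genes are uncertain. The share was 4.54% or less in the other 8. On the same strand Gbp4 overlaps Gbp8 and Gbp9, Gbp6 overlaps Gm43302, Gbp7 overlaps Gm43802, Igtp overlaps Irgm2 and Ifi47 overlaps Olfr56, and reads in a shared stretch cannot be assigned to 1 of the genes with certainty.

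The library labelled Ctrl held 118743318 UMIs (unique molecular identifiers, 1 per captured molecule) and the library labelled CL 155765480. After filters 5937 and 8826 cells remained, with medians of 11351 and 10337 UMIs, and 22 barcodes were among the candidate cells of both libraries. Clusters were named from marker genes, and 7 classes had enough cells in both: basal-like (408 and 444 cells in Ctrl and CL), secretory-lineage luminal-like (2622 and 3904), hormone-responsive luminal-like (2023 and 2500), fibroblast-like (197 and 203), endothelial-like (53 and 61), T and NK-like (213 and 735) and macrophage-like (59 and 254). The endothelial-like cells, which the CD31 sort should have removed, had 1085 and 914 CPM (UMIs of a gene per 1e6 UMIs of the class) of Pecam1, the gene of CD31. Macrophage-like cells were 59 of 5937 in Ctrl and 254 of 8826 in CL, against the label of macrophage depletion. The excess lay in 1 of its 2 clusters: the cluster led by Lyz2 and S100a8, whose second-best markers were those of neutrophils, held 21 and 212 cells, while that led by C1qa held 38 and 42, a lower share of all cells in CL than in Ctrl. Groups are called by their library labels, and the names rebuilt here may differ from the study's.

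Over all retained cells the members were counted 8802 times in Ctrl and 55286 times in CL, which is 102 and 470.4 CPM. Free RNA, read in droplets of 100 to 300 UMIs, held them at 92.2 CPM [86.6, 98.0] in Ctrl and 412 CPM [400.5, 424] in CL, which differ in the same direction as the cells. At a median of 202 and 196 UMIs per droplet, 0.0186 and 0.0808 free UMIs of the family are expected in each cell. That is at most 2.96% of the family's UMIs in any of the 7 classes in Ctrl and 4.70% in CL.

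Among the named classes the sum of the members was highest in endothelial-like and fibroblast-like cells in both libraries. In Ctrl the order ran from endothelial-like (999.8 CPM [884, 1127]) through fibroblast-like (444 CPM [413, 477]), T and NK-like (232 CPM [204, 262]), macrophage-like (122 CPM [91.7, 159]), hormone-responsive luminal-like (109 CPM [106, 112]) and basal-like (88.4 CPM [79.2, 98.4]) to secretory-lineage luminal-like cells (55.1 CPM [52.5, 57.9]). Macrophage-like and hormone-responsive cells were not told apart by their intervals, and the other neighbours were. In CL the order was endothelial-like (2542 CPM [2404, 2685]), fibroblast-like (1809 CPM [1739, 1881]), basal-like (1128 CPM [1090.5, 1167]), secretory-lineage (714 CPM [706, 722]), macrophage-like (570.4 CPM [539, 603]), T and NK-like (329 CPM [311, 347]) and hormone-responsive luminal-like cells (160.2 CPM [157, 164]), and no neighbours overlapped. Basal-like and secretory-lineage cells, at the foot of the order in Ctrl, thus stood just below the stroma in CL, and hormone-responsive cells stood last. Outside the 10% of their cells richest in members, basal-like and secretory-lineage cells stood at 37.0 and 17.4 CPM in Ctrl and at 311 and 279 CPM in CL. That cut is made on the members themselves and was read in no other class.

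**Figure D1:**
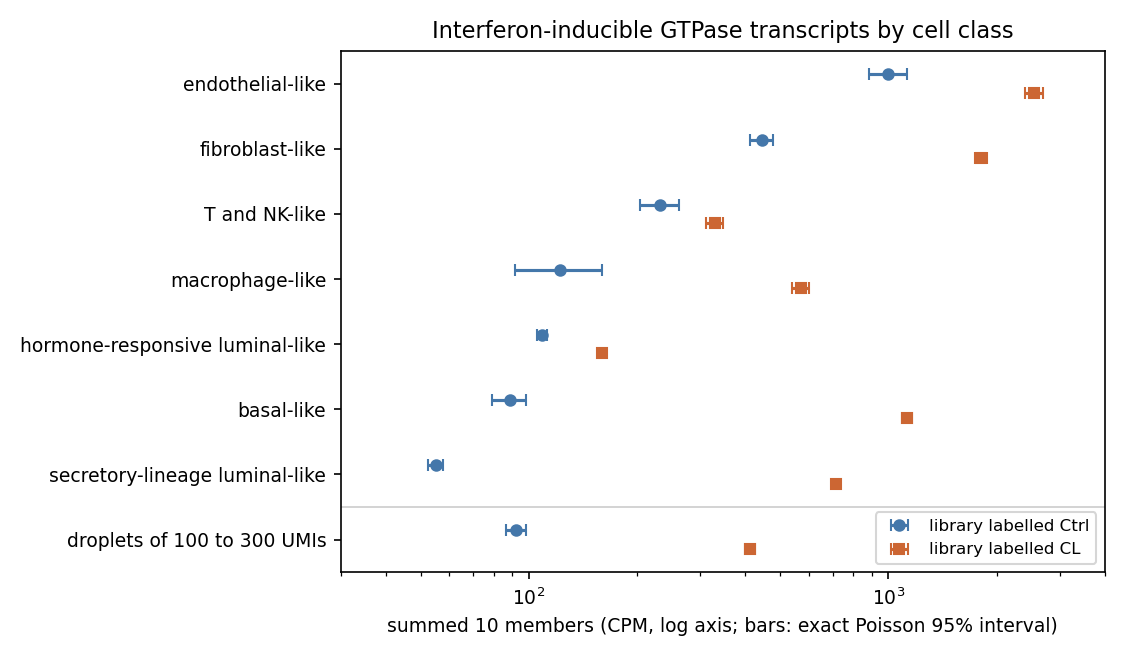
Summed level of the 10 members in CPM (log axis) in each cell class and in droplets of 100 to 300 UMIs, for the libraries labelled Ctrl and CL, with exact Poisson 95% intervals. Basal-like cells stand at 88.4 and 1128 CPM and hormone-responsive luminal-like cells at 109 and 160.2 CPM.

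Basal-like cells, the contractile outer layer of the duct, held 336 UMIs of the family in Ctrl and 3378 in CL, a sum 12.8-fold [11.4, 14.3] higher in CL. Gbp2 was at 36.9 CPM [31.0, 43.5] in Ctrl and 654 CPM [625, 683] in CL, and made up 41.7% and 57.9% of the family's UMIs. Iigp1 was at 6.05 and 144 CPM, a log2 ratio of CL over Ctrl of 4.57 [3.96, 5.24]. The other immunity-related GTPases were less far apart: Ifi47 was at 7.11 and 79.8 CPM, and the regulators Igtp at 10.0 and 66.8 CPM and Irgm1 at 18.2 and 86.8 CPM. Gbp7 was at 7.37 and 53.4 CPM, Gbp3 at 2.11 and 24.7 CPM, and Gbp6 was counted 2 times in Ctrl and 56 times in CL, a log2 ratio of 5.15 [3.23, 8.23]. The 8 members with at least 20 UMIs were all higher in CL by a log2 ratio of at least 1, with a median of 3.52, while 1.74% of 10538 genes measured this way passed that fold and the median of all genes was -0.08. Gbp4 and Gbp5 were close to absent, with 1 UMI each in CL and 0 and 1 in Ctrl.

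Secretory-lineage luminal-like cells, which include the progenitors of milk-producing alveoli, showed a difference of similar size from more counts. UMIs of the family numbered 1650 in Ctrl and 30955 in CL, and the sum was 13.0-fold [12.3, 13.6] higher in CL. Gbp2 was at 21.5 CPM [19.9, 23.3] in Ctrl and 465 CPM [459, 472] in CL, and held 39.1% and 65.2% of the family's UMIs. Iigp1 was at 6.95 and 77.9 CPM and Gbp3 at 5.38 and 52.2 CPM. Irgm1 had the smallest ratio of the 4 immunity-related GTPases, 9.22 and 33.0 CPM (log2 1.84 [1.65, 2.03]), against 2.77 [2.51, 3.03] for Igtp, 3.49 [3.28, 3.70] for Iigp1 and 3.70 [3.19, 4.25] for Ifi47. All 10 members were past a log2 ratio of 1 in a class where 1.66% of 13829 genes were. Gbp4 was counted among them with 0 UMIs in Ctrl and 55 in CL, at least 12.7-fold higher when 3 UMIs in the class are taken as the floor. Gbp5 stayed near the limit of detection, at 0.234 and 0.577 CPM.

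Hormone-responsive luminal-like cells, which carry the receptors for oestrogen, progesterone and prolactin, differed far less. The sum was 1.47-fold [1.42, 1.53] higher in CL. Iigp1 was the leading member in Ctrl, with 58.1% of the family's UMIs, and it stood at 63.2 CPM [60.8, 65.7] in Ctrl and 62.6 CPM [60.3, 64.9] in CL, 0.990-fold [0.938, 1.04]. Gbp2 was at 29.0 CPM [27.4, 30.7] and 73.1 CPM [70.6, 75.6], a log2 ratio of 1.33 [1.24, 1.43]. Gbp3 (1.20 and 3.09 CPM) and Ifi47 (0.295 and 0.685 CPM) also passed a log2 ratio of 1. So 3 of the 8 members with enough UMIs did, beside 1.51% of 14410 genes. Igtp (log2 0.82 [0.51, 1.13]) and Gbp7 (0.41 [0.18, 0.65]) were higher beyond counting error, whereas the intervals of Irgm1 (0.22 [-0.09, 0.54]) and Gbp6 (0.19 [-0.26, 0.64]) included 0. Gbp4 (1 and 2 UMIs) and Gbp5 (0 and 3 UMIs) were at or under the floor, although this is the deepest of the named classes, with medians of 19909 and 16681 UMIs.

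In the stroma the family was high in both libraries and less far apart between them than in basal-like and secretory-lineage cells. Fibroblast-like cells, which build the matrix around the ducts, had a sum 4.07-fold [3.75, 4.43] higher in CL, with Gbp2 at 99.9 and 632 CPM and Iigp1 at 151 and 566 CPM. Ifi47 was at 26.9 and 128 CPM and Irgm1 at 70.6 and 109.7 CPM, the smallest ratio of the 10 (log2 0.64 [0.28, 1.00]). Of the 10 members 9 passed a log2 ratio of 1, all but Irgm1, beside 2.66% of 8894 genes. The class depends on how clusters are drawn: a cluster of 56 and 68 shallow cells led by Il6 and Ccl7, whose best markers were those of fibroblasts, received no name and held the members at 1407 and 1970.3 CPM.

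Endothelial-like cells, which line the vessels, held all 10 members in both libraries. Iigp1 led in both libraries, at 368 CPM [299, 448] in Ctrl and 689 CPM [619, 766] in CL, followed in CL by Gbp2 (564 CPM), Igtp (251 CPM), Ifi47 (207 CPM) and Gbp4 (183 CPM). Gbp5, which supports inflammasome assembly in macrophages, was at 37.2 and 108 CPM here, its highest level among the 7 classes in each library. The sum was 2.54-fold [2.23, 2.91] higher in CL, and 7 of 10 members passed a log2 ratio of 1, where 7.72% of 5013 genes did. Gbp7 (96.6 and 137 CPM, log2 0.51 [-0.16, 1.22]) and Irgm1 (44.6 and 77.7 CPM, 0.80 [-0.16, 1.87]) were within counting error, and Iigp1 (log2 0.91 [0.58, 1.24]) was higher beyond it but short of that fold.

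T and NK-like cells had a sum 1.42-fold [1.24, 1.63] higher in CL, from 251 and 1263 UMIs. A single cell of CL held 161 of these UMIs, while the richest cell of Ctrl held 9. The class also compares different mixtures of cells. Its clusters led by Xcl1, Ccl5 and Gzmc held 75, 77 and 61 cells in Ctrl and 256, 405 and 74 in CL. In Ctrl Igtp (51.7 CPM), Ifi47 (42.4 CPM), Gbp4 (30.4 CPM) and Gbp7 (29.5 CPM) were the most abundant, and in CL Gbp2 (86.1 CPM), Ifi47 (58.3 CPM), Igtp (45.3 CPM), Gbp7 (41.9 CPM) and Gbp4 (32.3 CPM). Gbp2 (log2 1.59 [1.06, 2.17]) and Iigp1, from 2 and 34 UMIs (2.26 [0.30, 5.36]), were higher in CL. Free RNA is expected to supply 69.9% of these Iigp1 UMIs in Ctrl and 20.4% in CL, and 5.00% and 12.4% of those of Gbp2. With free RNA subtracted the log2 ratio of Gbp2 was 1.47, and Iigp1 in Ctrl was left under the floor of 3 UMIs, so no ratio is given for it. The other 8 members were within counting error, with Igtp at -0.19 [-0.63, 0.27] and Irgm1 at -0.39 [-1.16, 0.43]. The 2 members past a log2 ratio of 1 stand beside 4.69% of 9300 genes. Iigp1, the leading member of endothelial-like cells, was at 1.84 and 8.85 CPM.

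Macrophage-like cells gave a large Gbp2 ratio from few counts in Ctrl. Gbp2 was seen in 5 UMIs of Ctrl (11.3 CPM [3.67, 26.4]) and 795 of CL (366 CPM [341, 393]), a log2 ratio of 5.02 [3.79, 6.64]. Ifi47 was counted 0 times in Ctrl and 87 times in CL, at least 5.91-fold higher against the floor, and Igtp 0 and 23, at least 1.56-fold higher. Gbp3 (38.4 and 46.1 CPM) and Gbp4 (45.2 and 33.6 CPM) led the family in Ctrl, and their ratios were within counting error. Of 9 members with enough UMIs 6 passed a log2 ratio of 1, Igtp and Ifi47 counted with 0 UMIs in Ctrl and Igtp short of that fold at its bound, and 3 were higher beyond counting error, beside 14.8% of 7465 genes. Their median ratio was 1.43, or 1.06 with both at their bounds. The class joins unlike cells: the sum was 144 and 282 CPM in the cluster led by C1qa (38 and 42 cells), and 60.5 and 658 CPM in that led by Lyz2 and S100a8 (21 and 212 cells).

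**Figure D2:**
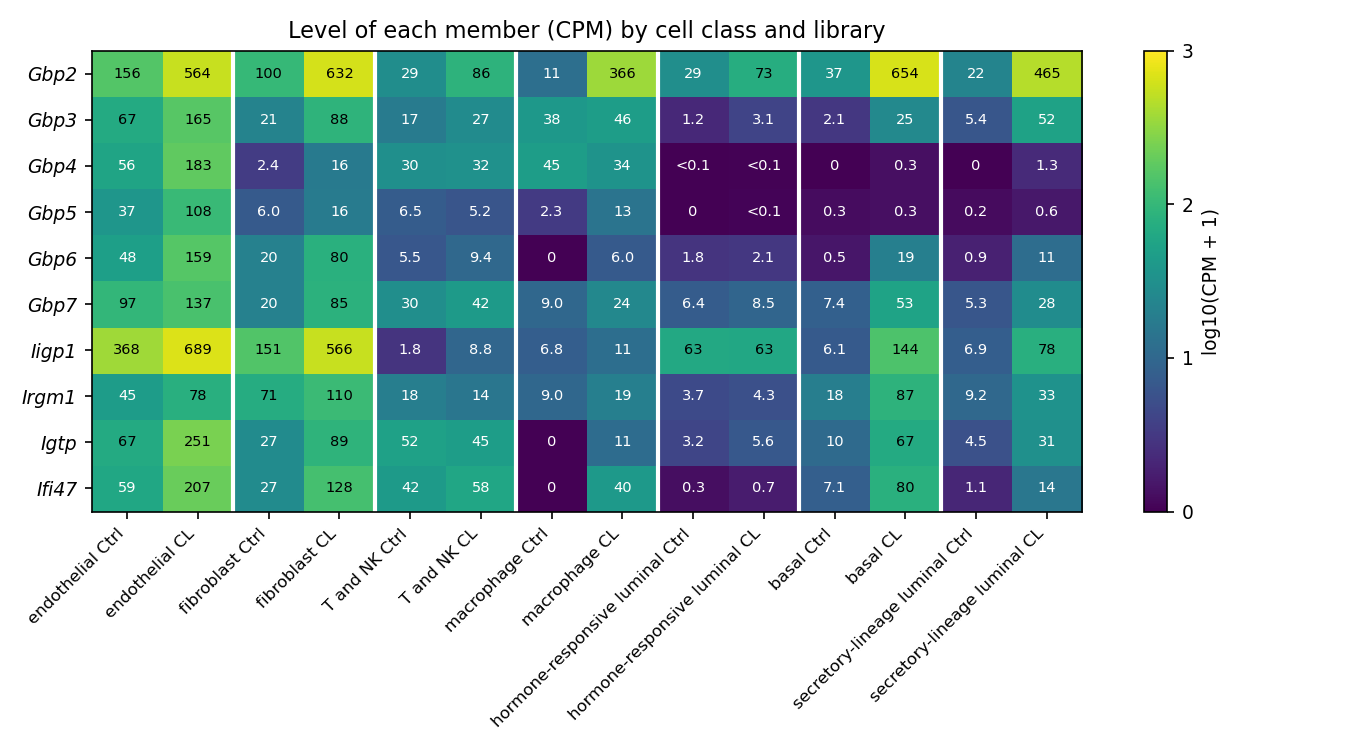
Level of each member (rows) in each cell class and library (columns), printed in CPM and coloured by level. Iigp1 is at 63.2 and 62.6 CPM in hormone-responsive luminal-like cells, and Gbp4 and Gbp5 are near 0 in the 3 epithelial classes.

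Gbp2 was higher in CL beyond counting error in all 7 classes, with log2 ratios from 1.33 in hormone-responsive to 5.02 in macrophage-like cells. The last value joins clusters of unlike cell numbers, and in the C1qa-led cluster alone Gbp2 was at 15.3 and 135 CPM (3.14 [1.85, 4.81]). Irgm1 had the lowest ratio among members with at least 20 UMIs in basal-like, fibroblast-like and T and NK-like cells, at 2.26, 0.64 and -0.39. No member was lower in CL beyond counting error in any of the 7 classes. Gbp4 and Gbp5 were compared in 5 classes each, since basal-like and hormone-responsive cells had too few UMIs of either.

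**Figure D3:**
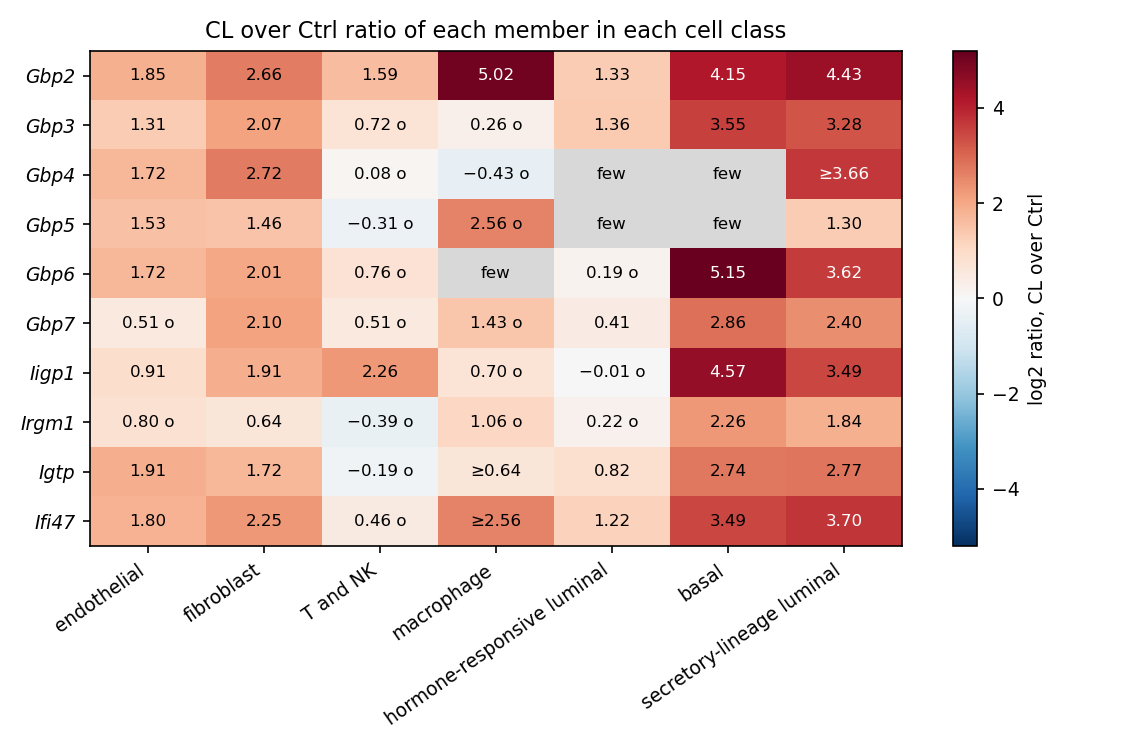
Log2 ratio of CL over Ctrl for each member (rows) and class (columns). The letter o marks an interval that includes 0, the word few marks under 20 UMIs in both libraries together, and the sign ≥ marks a bound against a floor of 3 UMIs where Ctrl had none. Gbp2 runs from 1.33 to 5.02 and Irgm1 from -0.39 to 2.26.

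The next comparison asked whether more cells held the family's transcripts. At equal depth, after thinning each cell to 2000 UMIs, a UMI of any member was found in 10.0% [7.26, 13.4] of basal-like cells in Ctrl and 41.0% [36.1, 46.0] in CL, with 9 and 44 shallower cells left out. Secretory-lineage cells had 6.92% [5.97, 7.98] and 39.7% [38.1, 41.3] (65 and 84 left out), and hormone-responsive cells 16.7% [15.1, 18.4] and 22.3% [20.7, 24.0] (42 and 39 left out). Hormone-responsive cells thus held a member more often than the other epithelial classes in Ctrl and less often in CL, by more than counting error in each. With at least 2 UMIs required, the intervals of hormone-responsive (2.93% [2.23, 3.77]) and basal-like cells (2.51% [1.21, 4.56]) overlap in Ctrl. Fibroblast-like cells had 34.6% [27.8, 41.9] and 77.9% [71.1, 83.7] (12 and 22 left out), endothelial-like cells 56.8% [41.0, 71.7] and 86.8% [74.7, 94.5] (9 and 8 left out, and at 4000 UMIs 78.6% [59.0, 91.7] and 87.8% [73.8, 95.9], which overlap), and macrophage-like cells 22.2% [12.0, 35.6] and 47.0% [40.4, 53.6] (5 and 22 left out). In T and NK-like cells the shares, 36.1% [29.3, 43.3] and 40.4% [36.7, 44.2] (19 and 49 left out), overlapped. Counted at full depth, cells with a member made up 37.0% and 58.6% in basal-like, 27.0% and 68.9% in secretory-lineage, 64.5% and 71.8% in hormone-responsive, 57.4% and 90.1% in fibroblast-like, 79.2% and 90.2% in endothelial-like, 55.4% and 64.1% in T and NK-like and 42.4% and 74.4% in macrophage-like cells. No class lacked the whole family, so no class gives the background of these shares, and the part of free RNA in them was not tested.

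**Figure D4:**
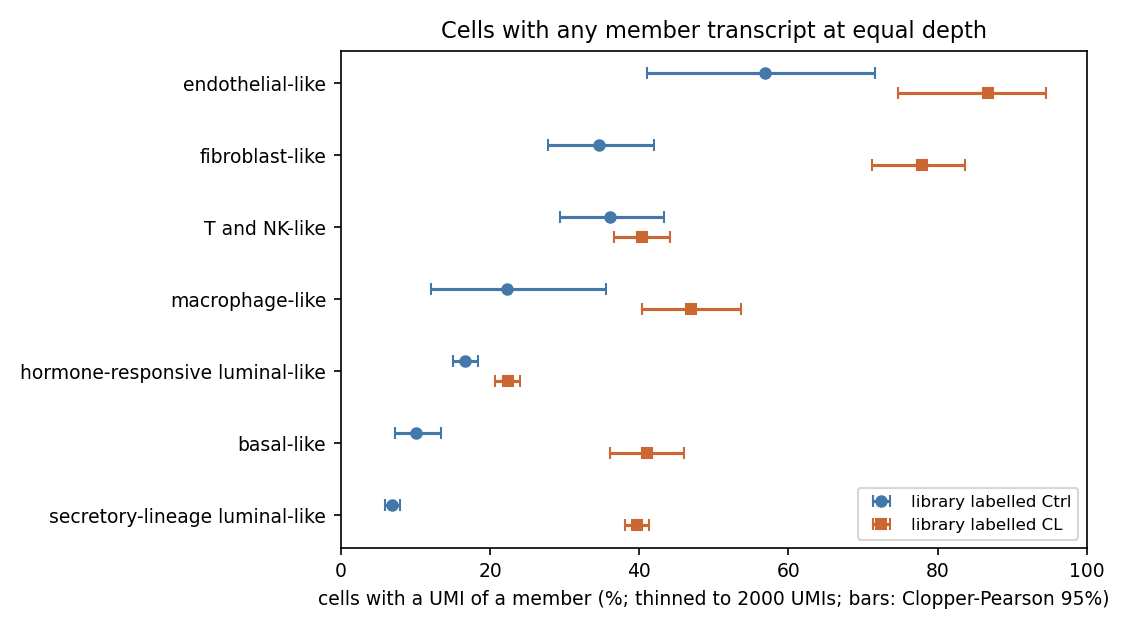
Share of cells with at least 1 UMI of any member after thinning to 2000 UMIs per cell, by class and library, with Clopper-Pearson 95% intervals. The intervals of both libraries overlap in T and NK-like cells and lie apart in the 3 epithelial classes.

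In basal-like and secretory-lineage cells most transcripts of the family were gathered in a minority of cells. In CL the 10% of basal-like cells richest in them (45 cells) held 77.4% of the family's UMIs, and the richest 10% of secretory-lineage cells (391 cells) held 66.5%. In Ctrl these shares were 63.7% and 73.0%, and in hormone-responsive cells 47.2% in Ctrl and 46.7% in CL. Fibroblast-like cells had 67.9% in Ctrl and 47.8% in CL, and endothelial-like cells 58.4% and 43.0%. The variance of the thinned counts over their mean, which is 1 for Poisson counts, was 9.20 in basal-like and 7.12 in secretory-lineage cells of CL and 1.61 in hormone-responsive cells of CL. At full depth, at least 5 different members were seen in 12.2% of basal-like and 10.5% of secretory-lineage cells of CL. In Ctrl these were 0.490% and 0.458%, and such shares can also rise with the level of the family. Single basal-like and secretory-lineage cells reached 54 and 196 UMIs of the family in Ctrl and 205 and 319 in CL.

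In basal-like and secretory-lineage cells Gbp2 and the other members were often found in the same cells. Among thinned basal-like cells of CL with a Gbp2 UMI, 70 of 101 (69.3%) also held another member, against 63 of 299 (21.1%) without Gbp2. In secretory-lineage cells of CL the counts were 505 of 1029 (49.1%) and 487 of 2791 (17.4%), and in Ctrl 11 of 62 (17.7%) and 115 of 2495 (4.61%). In hormone-responsive cells they lay close together, 12 of 103 (11.7%) against 228 of 1878 (12.1%) in Ctrl and 42 of 271 (15.5%) against 279 of 2190 (12.7%) in CL. In CL the shares were 70.3% and 55.6% in fibroblast-like, 100.0% and 73.1% in endothelial-like, 44.1% and 34.8% in T and NK-like and 43.2% and 18.5% in macrophage-like cells, with Gbp2 and without it. These cells come from 1 library each and are not replicates. The richest 10% of basal-like cells of CL also had 3913 CPM of the 6 MHC class II genes, against 422 CPM in the other cells, and 15194 CPM of basal markers against 27602 CPM. They were deeper, with a median of 10941 UMIs against 5374 (cells were ranked on unscaled UMIs of the members), and held 1846 against 1100.2 CPM of secretory-lineage markers, and the part of either was not tested. In Ctrl the richest 10% had 25385 CPM of basal markers against 25356 and 1045 CPM of secretory-lineage markers against 1199. In secretory-lineage cells of CL the class II values were 1746 and 385 CPM and macrophage markers were at 52.6 and 54.6 CPM, at median depths of 13612 and 8821 UMIs.

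Clusters within a class were not alike. The 6 secretory-lineage clusters all stood higher in CL, with log2 ratios of the sum from 2.78 [2.60, 2.96] in that led by S100g to 4.43 [4.23, 4.64] in that led by Fam107b and Lypd3. The cluster with the highest sums, 129 and 1279 CPM, was led by Gbp2 itself, so its level is no finding. Of the others the cluster led by Csf3 and Cxcl2, which encode a growth factor and an attractant of neutrophils, was highest in CL (72.3 and 847 CPM) and that led by Car2 lowest in Ctrl (26.4 and 441 CPM). Among the 5 hormone-responsive clusters the ratio was 1.32 [0.73, 1.97] in the shallow cluster led by Snhg20 (63 and 110 cells), 0.93 [0.70, 1.16] in the cluster led by Upk3a, 0.64 [0.54, 0.74] in that led by AW112010 and Ly6a, 0.30 [0.20, 0.40] in that led by Fxyd2 and 0.23 [0.004, 0.45] in that led by Aoc1. The Upk3a-led cluster held 128 and 868 cells of Ctrl and CL and the Aoc1-led cluster 903 and 100, so the class is made of different cells in each library. Iigp1 varied with these clusters: it was at 122 and 122 CPM in the Fxyd2-led, 53.8 and 69.4 CPM in the AW112010-led, 21.7 and 28.1 CPM in the Upk3a-led and 42.2 and 25.1 CPM in the Aoc1-led cluster. It was level in the first (log2 0.001 [-0.12, 0.12]), higher in CL in the second (0.37 [0.22, 0.51]) and lower in the last (-0.75 [-1.20, -0.33]), and in the Snhg20-led cluster it was at 54.1 and 91.9 CPM (0.77 [0.01, 1.60]). Among T and NK-like cells the cluster led by Ccl5 and Trbc2 had 215 and 411 CPM (0.94 [0.62, 1.27]), and those led by Xcl1 (0.03 [-0.36, 0.44]) and Gzmc (0.02 [-0.38, 0.42]) were within counting error. In the Gzmc-led cluster Igtp was lower in CL, at 102 and 55.3 CPM (-0.89 [-1.69, -0.11]). In the Ccl5-led cluster Igtp was higher in CL, at 32.1 and 59.6 CPM (0.89 [0.07, 1.84]).

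**Figure D5:**
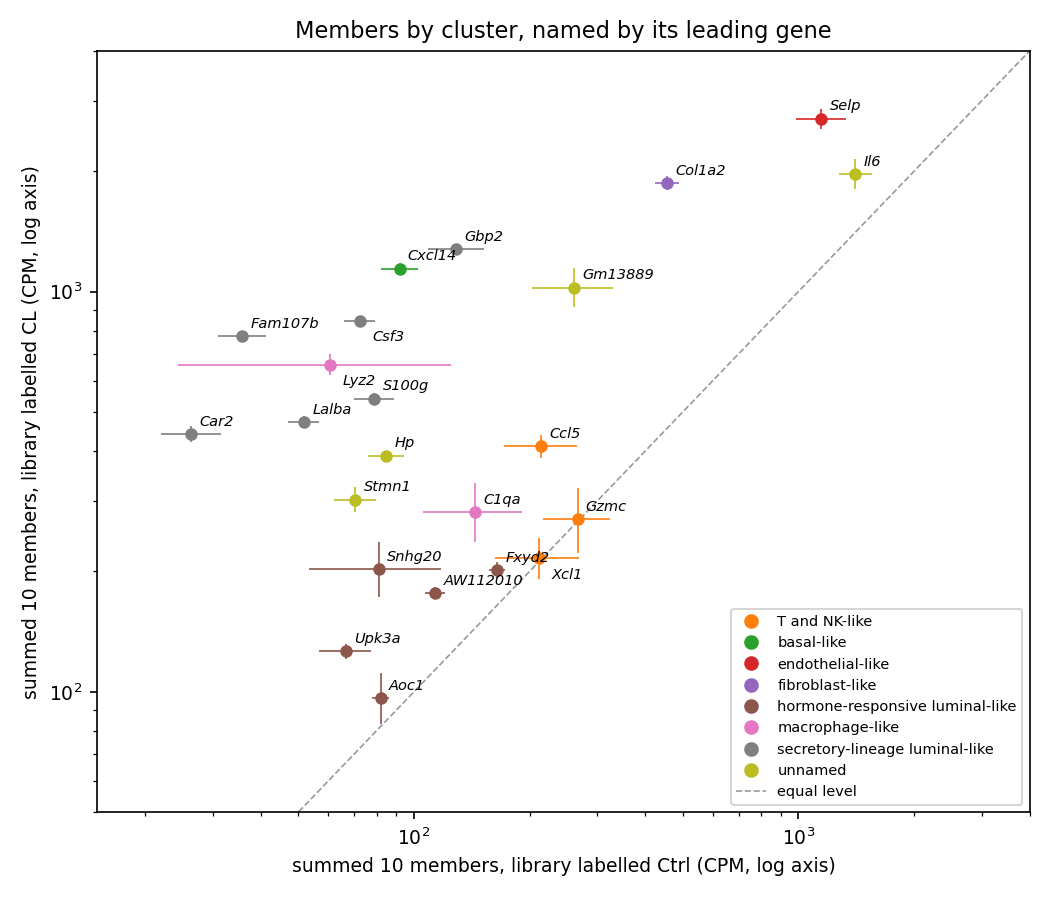
Summed members in each cluster with at least 20 cells in both libraries, in CPM in the library labelled Ctrl (x, log axis) against the library labelled CL (y, log axis), with exact Poisson 95% intervals. Secretory-lineage and basal-like clusters lie far above the line of equal level, and the Xcl1 and Gzmc clusters lie on it.

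Other genes of the pathway were read from lists of related genes. Of 14 further interferon-inducible GTPases 10 were in the files, and in secretory-lineage cells 5 of 5 with enough UMIs passed a log2 ratio of 1 (all genes 1.66%), among them Irgm2 (1.00 and 4.57 CPM) and Tgtp1 (0.100 and 2.38 CPM). In fibroblast-like cells 4 of 5 did (all genes 2.66%) and in hormone-responsive cells 1 of 4 (1.51%), Irgm2 (1.06 and 2.34 CPM). The counts were 1 of 3 in endothelial-like (7.72%), 1 of 5 in T and NK-like (4.69%), 1 of 2 in macrophage-like (14.8%) and 1 of 1 in basal-like cells (1.74%). Irgm2 was at 11.1 and 7.55 CPM in T and NK-like cells and at 22.3 and 27.9 CPM in endothelial-like cells. Ifng, the gene of interferon gamma, was at 188 and 156 CPM in T and NK-like cells, a log2 ratio of -0.27 [-0.50, -0.03], from 204 UMIs in 213 cells of Ctrl and 600 in 735 cells of CL. The level is per UMI of the class, so it is lower in CL while the library holds more Ifng UMIs. The ratio also compares different mixtures, since the Gzmc-led cluster was 61 of 213 of these cells in Ctrl and 74 of 735 in CL. Ifng had at most 11 UMIs in any other class of either library. The receptor gene Ifngr1 did not pass a log2 ratio of 1 in any of the 7 classes.

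Targets of interferon gamma outside the family went with it in part. In basal-like cells 8 of 9 measured targets were higher in CL by a log2 ratio of at least 1, where 1.74% of all genes were, in fibroblast-like cells 7 of 9 (2.66%), in secretory-lineage cells 6 of 10 (1.66%), in macrophage-like cells 5 of 10 (14.8%), in endothelial-like cells 4 of 9 (7.72%), in hormone-responsive cells 0 of 9 (1.51%) and in T and NK-like cells 0 of 8 (4.69%). Targets lower in CL by that fold numbered 2 in macrophage-like cells (Cxcl10 and Ido1, where 6.46% of all genes were lower by it), 1 in endothelial-like cells (Nlrc5, 6.02%), 1 in T and NK-like cells (Ido1, 2.25%) and 1 in hormone-responsive cells (Ido1, 2.39%). Cxcl10, a chemokine that draws T cells, was at 10.8 and 213 CPM in basal-like cells and at 21.5 and 23.0 CPM in secretory-lineage cells. Ido1, which degrades tryptophan, was at 670.4 and 281 CPM in hormone-responsive cells, lower in CL. Of the MHC class II genes 6 of 6 passed in basal-like cells, 6 of 6 in secretory-lineage cells and 0 of 6 in hormone-responsive cells, and 4 were lower by that fold in macrophage-like cells, beside the same 6.46% of all genes. The C1qa-led cluster, which class II genes also lead, was 38 of 59 of these cells in Ctrl and 42 of 254 in CL, so that value compares different mixtures. Of the type I interferon targets 6 of 9 passed in basal-like cells, 4 of 11 in secretory-lineage, 0 of 10 in hormone-responsive, 5 of 10 in fibroblast-like, 4 of 8 in endothelial-like, 4 of 10 in T and NK-like and 2 of 7 in macrophage-like cells, against the same shares of all genes. Ifnb1, a type I interferon, had 38 UMIs in secretory-lineage cells and 45 in macrophage-like cells of Ctrl and 0 in both in CL. Of 10 genes that tissue dissociation is known to raise, 0 passed upward in any of the 7 classes. This counts the upward direction only, and the part of dissociation was not tested.

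Markers of immune cells were also read in the epithelial classes. The 11 macrophage markers summed to 70.5 and 88.2 CPM in basal-like cells of Ctrl and CL, 64.7 and 54.3 CPM in secretory-lineage cells and 19.3 and 21.8 CPM in hormone-responsive cells, against 13518 and 11887 CPM in macrophage-like cells. Those higher in CL were 7, 7 and 5 of the 11 in these epithelial classes, at any size of ratio, where the median log2 ratio of all genes was -0.08, -0.04 and -0.02. The 12 T and NK markers summed to 37.4 and 23.4 CPM, 11.7 and 15.4 CPM and 11.5 and 22.2 CPM in the same order. Their part in the members' levels was not tested.

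Across the 14 pairs of class and library, the members differed in how far each followed the others. Pearson's r of log2(CPM + 10) with the sum of the other 9 was 0.92 for Gbp7, 0.89 for Gbp6 and 0.87 for Ifi47, and lowest for Gbp4 (0.44) and Iigp1 (0.67). Outside the family the genes most like its sum, of 6014 compared, were Rnf213 (0.85), Tapbp (0.85), Cfb (0.84), Parp14 (0.82) and Tap1 (0.82). The points share libraries and depth, so these values only describe the pattern.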

How the data were processed

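Single cell suspensions of mammary glands were measured by 10x Genomics 3' sequencing, 1 library for each of Ctrl and CL, grouped by the labels. The authors deposited raw UMI counts per gene and barcode for all barcodes, which the file headers credit to Cell Ranger 4 and the submitters' processing notes to Cell Ranger 2.1.1 on mm10, and the annotation was not given in the sources used here. The methods state that stored sorted cells were revived before library construction. Because the deposited barcode lists do not index these tables, the barcodes with most UMIs were taken, as many as each list holds (7217 and 10555), and held 82.7% and 85.7% of all UMIs.

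Cells with at least 500 genes and at most 15% mitochondrial UMIs were kept. Scrublet in scanpy 1.11.5 marked 0 doublets in CL at its own threshold, so the threshold of Ctrl was applied to both, a choice made after seeing the data, and 5.72% and 5.45% were removed. Cells were clustered with Leiden at resolution 1.0 on 2000 variable genes without interferon, MHC and member genes, and 23 of 27 clusters were named from marker lists. Names from clusters end in "-like". UMIs were summed for each class in each library and scaled to the class total (CPM). Ratios have exact conditional intervals, levels exact Poisson intervals and shares Clopper-Pearson intervals, at 95%. These cover counting error only. A gene was measured in a class when it had at least 20 UMIs over both libraries, and a count of 0 was given a floor of 3. UMI counts from 3' reads are not scaled by gene length, and levels of different genes are compared as captured molecules. The genes named are all 10 members, and from the other lists counts by direction with examples. The members and lists were chosen with earlier results of these data known, and no test was made. For each class counts were simulated as Poisson, the model that the intervals assume. Of the intervals of 200 changed genes, 95% to 98.5% held the true ratio. This checks the calculation only, since UMIs of the members varied more between cells than Poisson counts do. Alternatives were other cell filters, clusterings, namings, scalings (edgeR 4.0.16 TMM factors among them), free RNA corrections and thinning depths. B-like cells (3 and 19) were not compared.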

Additional observations from a re-analysis of the deposited data

Results flagged for a closer look

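Droplets of 100 to 300 UMIs, which hold free RNA and served above as the background of the cells, carried the summed members at 92.2 CPM in the library labelled Ctrl and 412 CPM in that labelled CL (log2 ratio 2.16 [2.06, 2.26]). The 4 clusters that received no name also held the members above their level in Ctrl. The cluster led by Hp and Muc16, with markers of both luminal classes, was at 84.8 and 389.6 CPM, a log2 ratio of 2.20 [2.05, 2.36]. The shallow cluster led by Il6 and Ccl7 was at 1407 and 1970.3 CPM, a log2 ratio of 0.49 [0.30, 0.68]. The dividing cells led by Stmn1 were at 70.4 and 302 CPM, a log2 ratio of 2.10 [1.89, 2.32]. The cluster led by Gm13889 and Mustn1, with markers of pericytes and basal cells, was at 261 and 1024 CPM, a log2 ratio of 1.97 [1.60, 2.37]. These ratios compare 1 library with 1 library and were not tested.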

How the results depend on the processing

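The sum of the members kept its direction in all 7 classes under every alternative run. Among the summed ratios recomputed 84 stayed within their counting error and 21 moved beyond it, and among those of single members 914 stayed and 42 moved. In fibroblast-like cells the log2 ratio of 2.03 became 1.83 with at least 1000 genes per cell, 1.76 with at least 200, 1.61 with a mitochondrial share of at most 5%, 1.76 with no such limit, 1.77 with doublets kept, 1.65 at a clustering resolution of 0.5 and 1.71 with each cell named alone. T and NK-like cells gave 0.30 with 1000 genes, 0.82 with 200, 0.26 with the 5% limit and 0.81 with doublets kept. Hormone-responsive cells gave 0.63 with 200 genes, 0.69 with doublets kept, 0.68 with interferon genes used in clustering, 0.90 with cells named alone and 0.33 without the Aoc1-led cluster. Macrophage-like cells gave 3.44 without the C1qa-led cluster. Leaving out clusters was chosen after seeing the data. The mean of each cell's CPM gave 3.18 in basal-like, 3.77 in secretory-lineage and 1.59 in endothelial-like cells, and naming cells alone gave 3.84 in secretory-lineage cells. The difference in the share of cells with a member, CL minus Ctrl, was 31.0 points in basal-like, 32.8 in secretory-lineage, 5.64 in hormone-responsive and 43.3 in fibroblast-like cells. For at least 2 UMIs it was 21.2, 20.3 and 2.64 points in the first 3. Without thinning it was 21.5, 41.9, 32.8 and 10.9 points in basal-like, secretory-lineage, fibroblast-like and endothelial-like cells, and thinned to 4000 UMIs 40.8 in secretory-lineage and 9.23 in endothelial-like cells, where it was 29.97 at 2000 UMIs. The share of all measured genes past the fold was 0.904%, 0.865%, 0.509%, 1.43%, 3.85%, 0.912% and 9.56% among genes with at least 100 UMIs, in the order basal-like, secretory-lineage, hormone-responsive, fibroblast-like, endothelial-like, T and NK-like and macrophage-like. With 1 mismatch allowed, GAS letters were in 7 of the 8 promoter entries. For all of these the cause was not tested.

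No paired analysis was possible because each group has 1 library, so no replicate was left out. The order of classes changed in 0 places when single-cell CPM were averaged and under subtraction of free RNA. Few UMIs of Gbp4 and Gbp5 limit their comparison in epithelium, and cell numbers limit all members in endothelial-like cells and in macrophage-like cells of Ctrl. Treatment, library, sort and animals cannot be told apart.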
